A study of Homo sapiens with 42 samples.

Results

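The matrix metalloproteinase (MMP) genes described here are MMP1, MMP2, MMP3, MMP7, MMP9, MMP10, MMP12, MMP13, MMP14 and MMP28. They are named members of the family, chosen with earlier results of these data known, and each gene was read from probe sets annotated to it alone, keeping for each the probe set that was brightest on average across the 42 arrays. They are 10 of the 19775 genes measured, and 12 other MMP genes are on the array. Expression was measured on Affymetrix arrays in 6 head and neck squamous cell carcinoma (HNSCC) lines, each with 3 control arrays, labelled untreated while the methods name PBS, and 3 arrays after 100 nM cetuximab (CTX) for 24 hours. SCC25, SQ20B and SCC61 are HPV-negative, and SCC047, SCC090 and 93VU147T are HPV-positive. CTX is an antibody that blocks ligand binding to EGFR. Untreated HaCaT keratinocytes and CTX-treated SCC1 cells, with 3 arrays each, are given by level only. All are established cell lines grown without stroma, and no source states that the 3 arrays of a group came from separate cultures, so each p-value measures only how far these arrays scatter, and that scatter may be technical.

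MMPs are proteases that need a zinc ion, are made as inactive precursors and are switched on when their propeptide is cut. MMP1 and MMP13 are collagenases that cut fibrillar collagen, MMP2 and MMP9 are gelatinases that act on denatured collagen and basement membrane, and MMP3 and MMP10 are stromelysins with broad matrix substrates. MMP7 (matrilysin) lacks the C-terminal domain of the others, MMP12 is the macrophage metalloelastase, MMP14 is anchored in the cell membrane and activates the precursor of MMP2, and MMP28 (epilysin) is made by keratinocytes. In squamous carcinoma MMPs are studied for their part in invasion, and several of their genes are known targets of AP-1 and ETS factors downstream of EGFR and ERK.

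EGR1 and DUSP6, genes that ERK signalling induces, served as the check that CTX acted. EGR1 was lower by 2.62 on the log2 scale in the mean of the 6 lines (SE 0.11, adjusted p = 9.78e-18) and DUSP6 by 2.31 (SE 0.11, adjusted p = 2.43e-16), both below 0 in 6 of 6 lines, although EGR1 in SCC090 did not pass (-0.64). One control array stood apart before any MMP is considered. SCC090 control replicate 1 had 191 genes more than 1 log2 unit from both other replicates, where every other array had 0 to 10, and MMP1, MMP2 and MMP10 are among the 191. SCC61 control replicate 3 had 8 such genes, of which MMP10 and MMP12 are members. Results that rest on these arrays are given with and without them. SQ20B control replicate 3 is the only array of the 6 lines outside the largest of the 3 batches that the array names show.

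MMP7, MMP10, MMP1, MMP3, MMP12 and MMP13 lie in the MMP cluster of chromosome 11. In the RefSeq order of protein-coding genes on GRCh38.p14, MMP10, MMP1, MMP3, MMP12 and MMP13 are direct neighbours, and MMP7 lies at the other end of the cluster, with MMP20, MMP27 and MMP8 between. MMP14 is on chromosome 14, MMP2 on 16, MMP28 on 17 and MMP9 on 20. RefSeq promoter windows of 300 bases were matched for 3 of the 10 genes, MMP7, MMP10 and MMP14. Those of MMP7, at chr11:102530698-102530997, and of MMP10, at chr11:102780579-102780878, are shown because both genes lie in the cluster and their windows share a motif at the same place. Both are on the minus strand of GRCh38.p14, printed 5′ to 3′ along the gene, with capitals on the AP-1 motif TGANTCA.
MMP7: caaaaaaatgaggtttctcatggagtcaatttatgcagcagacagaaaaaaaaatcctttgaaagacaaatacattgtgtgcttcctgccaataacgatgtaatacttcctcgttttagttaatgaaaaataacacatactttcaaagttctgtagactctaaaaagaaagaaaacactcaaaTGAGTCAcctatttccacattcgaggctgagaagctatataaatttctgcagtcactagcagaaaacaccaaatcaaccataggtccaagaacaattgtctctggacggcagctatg
MMP10: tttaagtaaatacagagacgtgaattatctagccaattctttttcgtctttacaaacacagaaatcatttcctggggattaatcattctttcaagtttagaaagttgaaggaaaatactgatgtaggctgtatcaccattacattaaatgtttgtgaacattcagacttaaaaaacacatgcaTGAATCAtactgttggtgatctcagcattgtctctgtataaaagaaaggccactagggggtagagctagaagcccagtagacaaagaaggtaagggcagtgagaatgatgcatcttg
The AP-1 match spans positions -67 to -61 from the transcript start in both promoters. TGANTCA, searched on both strands, was found in 7.76% of 27305 promoter windows. A TATAAA match starts at -30 in MMP7 and at -31 in MMP10, and 3264 of the 27305 windows hold one on either strand. AGGAAG, the PEA3 motif bound by ETS factors, occurs on the minus strand of the MMP7 window at -169 and at -145, is not in the MMP10 window, and is in 33.7% of windows. The MMP14 window holds none of the 3 motifs. These matches are letters in a window and were not tested for binding.

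Before treatment the lines differed widely in the MMPs they expressed, with SCC047 highest for 7 of the 10 on the probe sets kept. Values are log2 fRMA expression, whose median over all probe sets and arrays was 5.13. Levels near 3.5 lie at the low end of the scale, where fold changes are compressed. Among untreated cells SCC047 stood above the mean of the other 5 lines for 8 members and below it for 2, against 28.3% of all genes higher and 24.2% lower. SCC25 had 6 higher and 2 lower (22.7% and 25.3% of all genes), SCC61 had 4 and 4 (23.8% and 30.5%), 93VU147T had 2 and 6 (28.6% and 24.5%), SQ20B had 1 and 7 (24.4% and 27.4%) and SCC090 had 0 and 7 (29.3% and 35.3%). HPV-positive SCC047 and SCC090 therefore lay at opposite ends of this count, with HPV-negative SQ20B close to SCC090. Leaving out 1 array gave 0 to 2 members higher and 7 to 9 lower in SCC090, so its order against SQ20B is not fixed. A member that is very high in 1 line raises the mean against which the other lines are set, so several of them can count as lower for it. For MMP3, highest in SCC25, this held for SCC090, SCC047, SCC61 and 93VU147T, with means of 3.54 to 3.66. A member counted as lower is thus not always at a low level particular to that line. On the probe sets kept, 3 lowest lines did stand below the line next above them. These were SQ20B for MMP2 (adjusted p = 0.00013) and MMP14 (adjusted p = 5.25e-06) and SCC090 for MMP28 (adjusted p = 3.68e-22). In these bulk samples fewer cells that express a gene and less RNA per cell cannot be told apart.

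**Figure D1:**
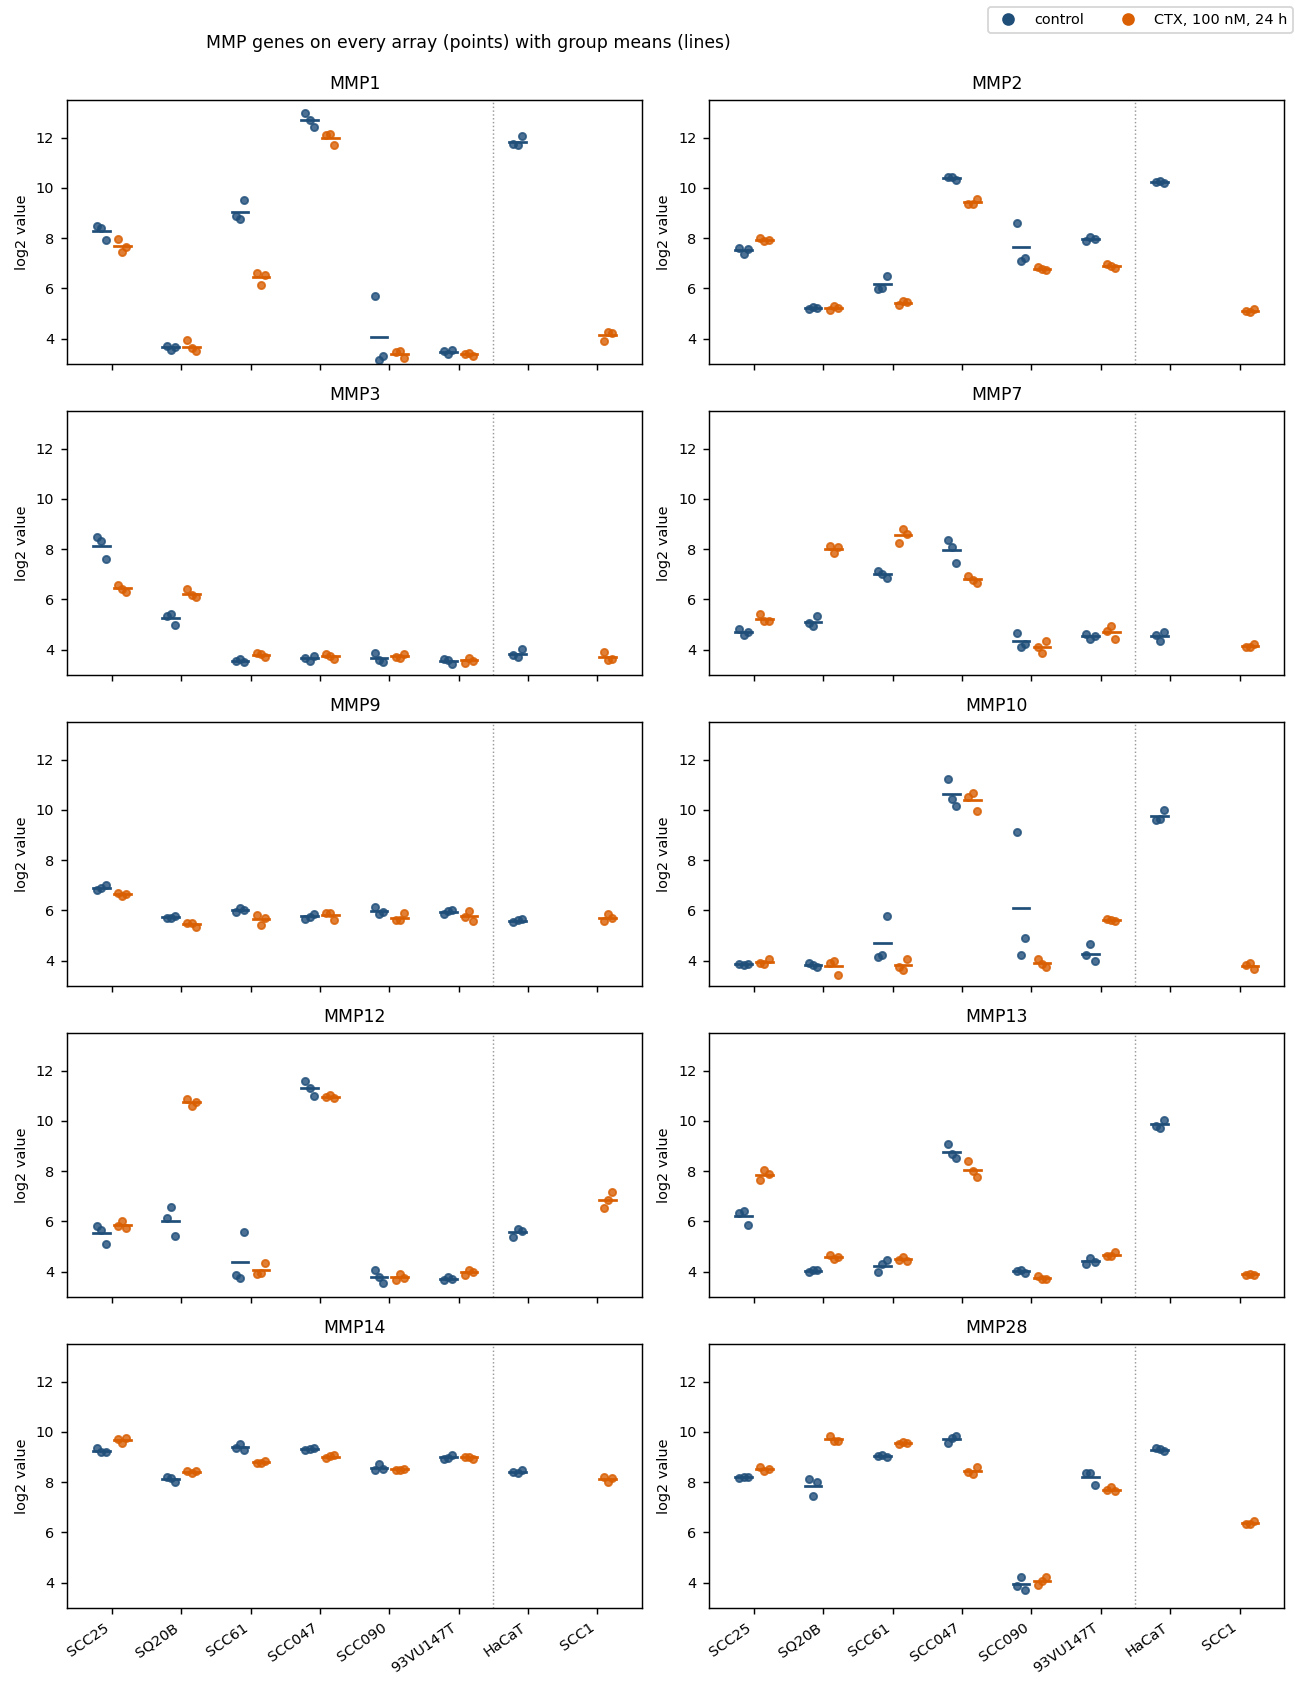
Log2 value of each MMP gene on every array (y axis) by cell line (x axis), with blue points for control and orange points for CTX and a line at each group mean; HaCaT has control arrays only and SCC1 has CTX arrays only. MMP12 in SQ20B moved from 5.41 to 6.55 in controls to 10.60 to 10.86 after CTX, and 1 SCC090 control array stood at 9.12 for MMP10.

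The collagenase MMP1 had the widest range. Its untreated values were 12.98, 12.71 and 12.42 in SCC047, 8.87, 8.74 and 9.54 in SCC61, 8.48, 8.41 and 7.93 in SCC25, and 3.56 to 3.72 in SQ20B and 3.38 to 3.54 in 93VU147T. SCC090 read 5.68, 3.16 and 3.31, with the first value from the array that stands apart. SCC047 exceeded SCC61 by 3.65 (SE 0.34, adjusted p = 4.43e-11), while SCC61 and SCC25 (adjusted p = 0.0582) and neighbours among the 3 lowest lines did not differ beyond the spread. MMP13 was 9.07, 8.67 and 8.53 in SCC047, 6.35, 6.40 and 5.87 in SCC25 and 3.94 to 4.56 on the arrays of the other 4 lines. SCC047 and SCC25 were each above the line that followed, and neighbours among the 4 low lines did not differ.

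The gelatinase MMP2 was also highest in SCC047, at 10.44, 10.44 and 10.33, or 2.44 above 93VU147T (SE 0.20, adjusted p = 2.09e-12). It was lowest in SQ20B, at 5.20 to 5.24. 93VU147T, SCC090 and SCC25 lay between 7.51 and 7.96 in mean and neighbours among them did not differ. Without SCC090 control replicate 1, MMP2 in SCC090 changed from 0.18 above the mean of the other lines (adjusted p = 0.315) to 0.30 below it (log2 difference -0.30, adjusted p = 0.00312). MMP9 varied least of the 10, with 1.17 log2 units between the highest and lowest line. It was 6.81, 6.89 and 6.99 in SCC25, above the next line by 0.89 (SE 0.11, adjusted p = 1.01e-08), and the other 5 lines had means of 5.73 to 6.01 with no difference between neighbours.

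The stromelysins were highest in different lines. MMP3 was high in SCC25 alone, at 8.47, 8.34 and 7.59, followed by SQ20B at 5.36, 5.43 and 4.99, and SCC25 exceeded SQ20B by 2.88 (SE 0.14, adjusted p = 1.1e-17). The other 4 lines had means of 3.54 to 3.66, with no difference between neighbours. MMP10 was 11.22, 10.45 and 10.17 in SCC047 and 3.74 to 3.90 in SQ20B. SCC090 ranked next to SCC047 only through 1 array, since its values were 9.12, 4.23 and 4.90. Leaving that array out turned SCC090 from 0.63 above the other lines (adjusted p = 0.248) to below them (log2 difference -0.89, adjusted p = 0.00309).

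MMP7 was highest in SCC047 (8.36, 8.07 and 7.45) and then in SCC61 (7.15, 7.02 and 6.86), with a difference of 0.95 (SE 0.17, adjusted p = 1.89e-05). The other 4 lines were below both, and only SCC047 and SCC61 stood above the line that followed. MMP12 stood at 11.58, 11.29 and 10.99 in SCC047, 5.26 above SQ20B (SE 0.28, adjusted p = 6.91e-17). SQ20B read 6.13, 6.55 and 5.41, which did not differ from SCC25, and 93VU147T was lowest with 3.66 to 3.78. MMP28 read 9.57, 9.75 and 9.81 in SCC047 and was lowest in SCC090, at 3.86, 4.23 and 3.70, which is 3.92 below the next line (SE 0.14, adjusted p = 3.68e-22). The size of that gap depended on the probe set. On the next brightest, control means were 6.76 in SCC090 and 7.37 in SQ20B. MMP14 spanned 1.25 log2 units, from 8.02 to 8.20 in SQ20B to 9.27 to 9.52 in SCC61, and neighbours among SCC61, SCC047 and SCC25 did not differ.

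After CTX the family did not move as one. The members that passed limma were 3 higher and 1 lower in SCC25 (8.66% of all genes passed higher and 7.3% lower), 6 and 1 in SQ20B (18.4% and 14.9%), 2 and 4 in SCC61 (24.4% and 19.8%), 0 and 5 in SCC047 (17.3% and 19.0%), 0 and 1 in SCC090 (0.516% and 0.885%) and 0 and 2 in 93VU147T (15.8% and 18.8%). The median change of the 10 genes was 0.41 in SQ20B and fell by 0.52 in SCC047, while the median over all genes was -0.03 in both lines. SQ20B is the line with most members higher, and in SCC047 every member that passed was lower. All 10 changes of a line share its control arrays, and the genes are not replicates of one another.

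**Figure D2:**
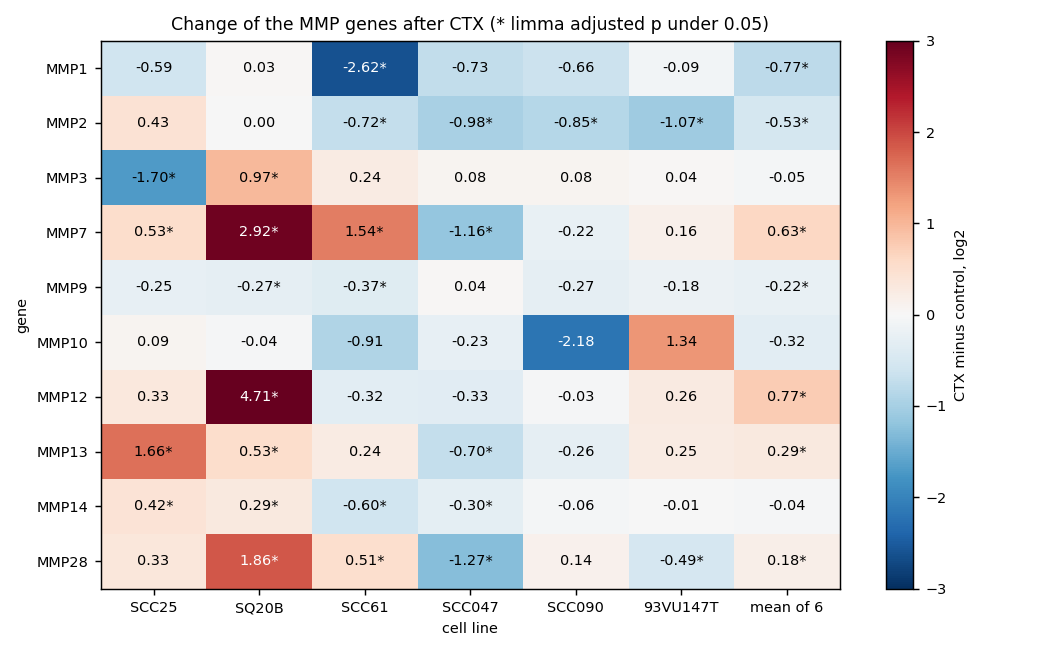
CTX minus control on the log2 scale for each MMP gene (rows) in each line and in the mean of 6 lines (columns), with colour saturating at 3 in either direction and an asterisk where limma's adjusted p was under 0.05. MMP7 and MMP28 are red in SQ20B (2.92 and 1.86) and blue in SCC047 (-1.16 and -1.27), and MMP2 is blue in 4 lines.

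MMP12 had the largest single response. In SQ20B it went from 6.13, 6.55 and 5.41 in controls to 10.86, 10.60 and 10.76 with CTX, a rise of 4.71 (SE 0.28, 26.1-fold, adjusted p = 3.19e-14). Every treated array was far above every control. No other line passed, with changes of -0.33 to 0.33 (in SCC61 -0.32, and 0.27 without control replicate 3), and the SQ20B change exceeded the mean of the other 5 by 4.72 (SE 0.31, adjusted p = 2.8e-13). Within the largest batch, without SQ20B control replicate 3, the rise was 4.40 (adjusted p = 1.27e-12). In SCC047, where MMP12 was already at 10.99 to 11.58, it read 10.95, 11.03 and 10.89 after CTX. Treated SQ20B cells had a mean of 10.74 and treated SCC047 cells one of 10.96, a difference that was not tested.

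MMP12 is best known from macrophages, so leukocyte genes were read beside it. Of 7 measured leukocyte markers, 0 were higher and 2 lower in SQ20B, against 18.4% and 14.9% of all genes. Their summed level was 8.15 to 8.30 in controls and 8.01 to 8.14 after CTX. PTPRC, the pan-leukocyte CD45, had a mean of at most 4.30 and TYROBP of at most 4.37 in any group, while ITGAM reached 5.16, CSF1R 6.29, AIF1 6.82, LAPTM5 7.51 and CD14 7.87. LAPTM5 and AIF1 were highest in SCC047 controls, the group with most MMP12, and CD14 in treated SCC1 cells. Fibroblast markers had 2 of 8 genes higher and 1 lower in SQ20B, against the same shares of all genes. Their summed level was 8.05 to 8.13 in controls and 8.60 to 8.66 after CTX. Their part in the MMP values was not tested. RNA quality was read from ACTB, whose 3′ minus 5′ signal shifted by 0.29 in SQ20B, against shifts of 0.11 or less in the other lines, and its part was not tested either.

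MMP7 rose in all 3 HPV-negative lines and fell in 1 HPV-positive line. SQ20B went from 5.05, 4.94 and 5.32 to 8.11, 7.85 and 8.09, up by 2.92 (SE 0.17, 7.55-fold, adjusted p = 2.54e-14). SCC61 went from 7.15, 7.02 and 6.86 to 8.26, 8.82 and 8.59, up by 1.54 (adjusted p = 6.6e-09), and SCC25 rose by 0.53 (adjusted p = 0.0314). In SCC047 it fell by 1.16 (adjusted p = 2.49e-06), from 8.36, 8.07 and 7.45 to 6.94, 6.78 and 6.67. None of these 4 pairs of groups overlapped. SCC090 gave -0.22 (adjusted p = 0.682) and 93VU147T 0.16 (adjusted p = 0.514).

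MMP28 moved in the same directions as MMP7 in SQ20B, SCC61 and SCC047. It rose by 1.86 in SQ20B (SE 0.14, adjusted p = 2.14e-12), from 8.11, 7.44 and 7.99 to 9.84, 9.65 and 9.64, and by 0.51 in SCC61 (adjusted p = 0.00252). It fell by 1.27 in SCC047 (adjusted p = 6.82e-09), from 9.57, 9.75 and 9.81 to 8.39, 8.34 and 8.60, and by 0.49 in 93VU147T (adjusted p = 0.00442). The 93VU147T change was -0.21 (adjusted p = 0.15) on the probe set with the highest ratio of spread between to within groups. Treated SQ20B cells had a mean of 9.71 and treated SCC047 cells one of 8.44, against 7.85 and 9.71 in controls. In SCC25 the change was 0.33 (adjusted p = 0.0997) on the brightest probe set and 0.55 (adjusted p = 2.11e-05) in the mean of its 5 probe sets.

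The collagenases MMP1 and MMP13 responded in different lines. MMP1 fell in SCC61 from 8.87, 8.74 and 9.54 to 6.63, 6.15 and 6.52, by 2.62 (SE 0.34, 6.13-fold, adjusted p = 1.07e-07), and by 2.37 without SCC61 control replicate 3 (log2 change -2.37, adjusted p = 4.12e-06). This was the largest fall that passed in the family, and it differed from the mean of the other 5 lines by -2.21 (adjusted p = 1.08e-05). In SCC047 (-0.73, adjusted p = 0.0958) and SCC25 (-0.59, adjusted p = 0.287) the change did not pass. SCC090 control replicate 1 widened the spread of MMP1 in all lines, and without it those 2 changes, of the same size, passed (adjusted p = 0.00112 in SCC047 and 0.0158 in SCC25). MMP13 rose in SCC25 from 6.35, 6.40 and 5.87 to 7.64, 8.05 and 7.90, by 1.66 (SE 0.14, 3.15-fold, adjusted p = 1.07e-09), and in SQ20B by 0.53 (adjusted p = 0.00373). The SQ20B means were 4.04 in controls and 4.57 after CTX, both below the median of 5.13 over all probe sets and arrays. MMP13 fell by 0.70 in SCC047 (adjusted p = 0.000158), from 9.07, 8.67 and 8.53 to values between 7.77 and 8.39.

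The gelatinase MMP2 fell in 4 lines and rose in none. In 93VU147T it went from 7.90, 8.03 and 7.97 to 6.99, 6.90 and 6.80, down by 1.07 (log2 change -1.07, SE 0.20, adjusted p = 5.78e-05). In SCC047 it went from 10.44, 10.44 and 10.33 to 9.36, 9.36 and 9.55, a change of -0.98 (adjusted p = 0.000147), and in SCC61 the change was -0.72 (adjusted p = 0.00283). SCC090 gave -0.85 (adjusted p = 0.0191), from 8.59, 7.10 and 7.20 to 6.84, 6.76 and 6.74. Without SCC090 control replicate 1 that change was -0.37 (adjusted p = 0.177), so the only member that passed in SCC090 was lost. SCC25 read 7.60, 7.38 and 7.55 before and 8.02, 7.89 and 7.91 after CTX, a change of 0.43 (adjusted p = 0.146, and 0.00108 without the SCC090 array). The SCC25 change differed from the mean of the other lines by 1.16 (adjusted p = 0.000149). MMP9 fell by 0.27 in SQ20B (adjusted p = 0.044) and by 0.37 in SCC61 (adjusted p = 0.00469). The SQ20B value did not pass within the largest batch (-0.25, adjusted p = 0.122). MMP9 is the only member that did not pass the F test of a difference between the 6 line changes (adjusted p = 0.209), and it passed with arrays centred on their medians (adjusted p = 0.00857) and under quantile normalization (adjusted p = 0.00984).

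The stromelysin MMP3 moved in opposite directions in the only 2 lines with levels above the low end of the scale. It fell in SCC25 from 8.47, 8.34 and 7.59 to 6.59, 6.42 and 6.29, by 1.70 (SE 0.14, 3.25-fold, adjusted p = 9.16e-10). In SQ20B it rose from 5.36, 5.43 and 4.99 to 6.41, 6.19 and 6.08, by 0.97 (adjusted p = 2.21e-06). Treated cells of the 2 lines had means of 6.43 and 6.23. In SCC25, MMP3 fell while MMP13, of the same cluster, rose. MMP10 passed in no line in the main fit, which left out HaCaT and SCC1 but no array of the other lines. With all 42 arrays in the fit it passed in SCC090 (adjusted p = 0.0354). With a replicate block MMP10 passed in SCC090 (adjusted p = 0.0298) and in 93VU147T (adjusted p = 0.0466). In SCC090 its values of 9.12, 4.23 and 4.90 before and 4.09, 3.88 and 3.75 after CTX gave -2.18 (SE 0.61, adjusted p = 0.0651), and without the first array -0.66 (adjusted p = 0.73). In 93VU147T it read 4.22, 4.65 and 3.98 in controls and 5.64, 5.62 and 5.60 with CTX. The groups did not overlap, and the change of 1.34 had an adjusted p of 0.0911 in the fit that includes the SCC090 array and 0.000243 without it. In SCC61 it read 4.15, 4.24 and 5.77 before and 3.75, 3.62 and 4.06 after CTX, a change of -0.91 (adjusted p = 0.243, and 0.00721 without the SCC090 array). Without SCC61 control replicate 3 that change was -0.38 (adjusted p = 0.687), and without both arrays its adjusted p was 0.179.

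MMP14 made small changes in 4 lines, 2 in each direction. It rose from 9.34, 9.21 and 9.22 to 9.70, 9.56 and 9.77 in SCC25, by 0.42 (SE 0.08, adjusted p = 0.000134), and by 0.29 in SQ20B (adjusted p = 0.00306). It fell from 9.34, 9.52 and 9.27 to 8.75, 8.76 and 8.83 in SCC61 (log2 change -0.60, adjusted p = 6.4e-08), and in SCC047 (-0.30, adjusted p = 0.00213). MMP2, the precursor that MMP14 activates, also fell in SCC61 and SCC047. The largest fall of MMP2 was in 93VU147T (-1.07), where MMP14 was at -0.006, and in SQ20B, where MMP14 rose, MMP2 was at -0.005. No relation between the 2 genes was tested.

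MMP3, MMP7, MMP13, MMP14 and MMP28 each rose in at least 1 line and fell in another, and the difference between lines was tested directly. In the F test over the 6 line changes, 9 of the 10 members passed, all but MMP9, against 59.0% of all genes. MMP7 (adjusted p = 9.06e-14), MMP28 (3.46e-13) and MMP12 (5.13e-12) had the smallest values. In the mean of the 6 lines, MMP12 (0.77), MMP7 (0.63), MMP13 (0.29) and MMP28 (0.18) were higher and MMP1 (-0.77), MMP2 (-0.53) and MMP9 (-0.22) lower, against 22.8% of all genes higher and 23.1% lower. The means of the 4 higher genes rest on few lines. MMP12 was above 0 in 3 of 6 lines and MMP7, MMP13 and MMP28 in 4 of 6. Without SQ20B the mean of MMP12 was -0.02 (adjusted p = 0.921), that of MMP28 -0.16 (adjusted p = 0.0342) and that of MMP7 0.17 (adjusted p = 0.0742). Without SCC25 that of MMP13 was 0.01 (adjusted p = 0.9). MMP1, MMP2 and MMP9 were each below 0 in 5 of 6 lines, but MMP1 passed in 1 line, MMP2 in 4 and MMP9 in 2. In SCC090 MMP1 was at -0.655, and at 0.16 without control replicate 1. MMP2 in SQ20B was at -0.005.

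Probe sets of MMP14 were alike in direction in every line but 93VU147T, while those of MMP28 and MMP2 differed more in size. The 4 probe sets of MMP14 were all higher in SCC25 (0.24 to 0.53) and SQ20B (0.26 to 0.40) and all lower in SCC61 (-0.67 to -0.51) and SCC047 (-0.35 to -0.29). They were also all lower in SCC090 (-0.32 to -0.06), where the brightest had the smallest change. The 5 of MMP28 were higher in SQ20B, by 0.86 to 2.63, and lower in SCC047, by -1.27 to -0.74, and gave 0.09 to 0.68 in SCC61 and -0.49 to -0.20 in 93VU147T. The untreated order of the lines for MMP28 did depend on the probe set. SQ20B minus the other lines was 0.03 on the brightest and -0.67 in the mean of the 5. On the dimmest, control means were 8.29 in SCC25 and 8.13 in 93VU147T, above 8.10 in SCC047, and SCC61 was at 7.21. MMP2 has 3 probe sets, and those not used had means of 5.00 and 3.26 over all arrays and moved by at most 0.18 in size. The other 7 members have 1 probe set each.

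**Figure D3:**
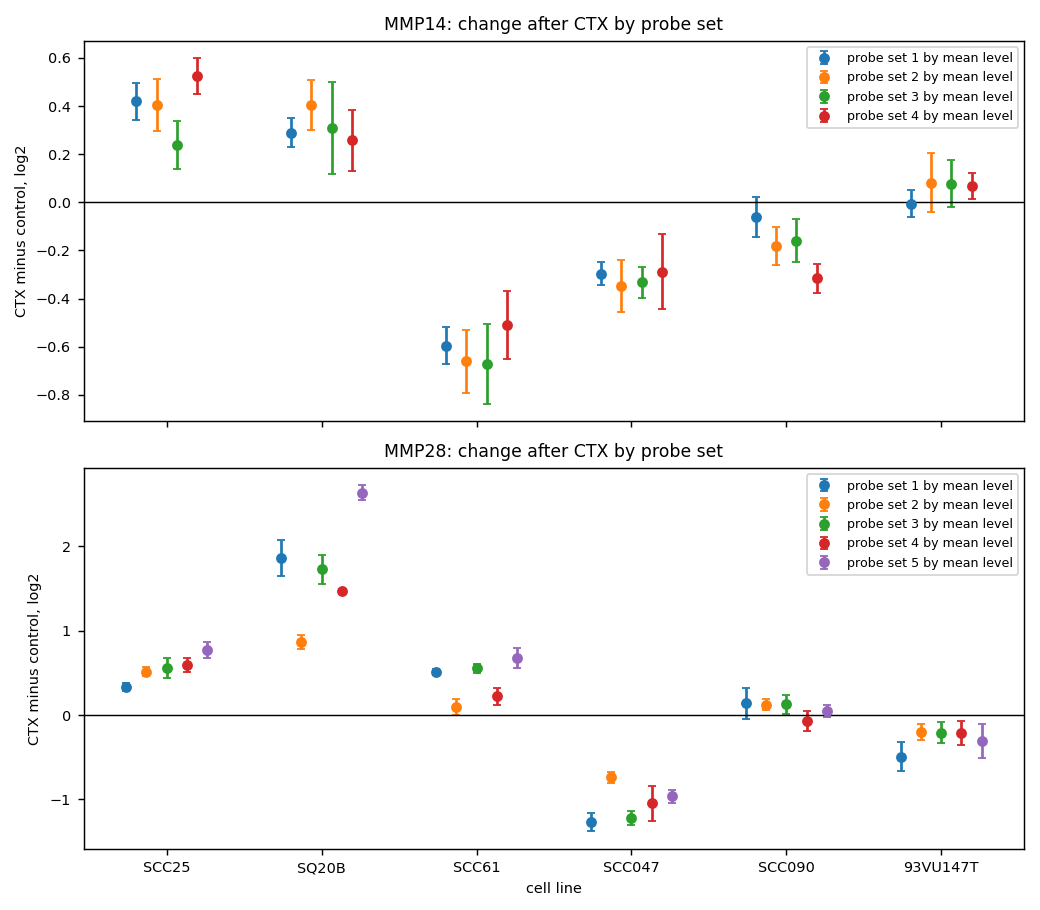
CTX minus control on the log2 scale (y axis) in each line (x axis) for the 4 probe sets of MMP14 and the 5 of MMP28, numbered from the brightest; error bars are the SE of the difference of 3 and 3 arrays. Probe sets lie on the same side of 0 in SCC25, SQ20B, SCC61 and SCC047 for both genes.

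The rest of the MMP system was read from lists of genes. Of the 12 other MMPs measured, 0 were higher and 4 lower in the mean of the lines (median change -0.08, against -0.02 over all genes, of which 22.8% were higher and 23.1% lower in the mean). The same shares apply to the counts in the mean for the lists that follow. The lower ones were MMP17 (-0.26), a membrane-bound MMP, MMP16 (-0.20), another of that kind, MMP11 (-0.17) and MMP26. MMP15 rose by 0.50 in SQ20B (adjusted p = 9.56e-06) and fell by 0.38 in SCC61 (adjusted p = 0.000206). Among 6 inhibitors, 4 were higher and 1 lower, with a median of 0.10. TIMP1, a broad tissue inhibitor of MMPs, fell by 0.26 in the mean (adjusted p = 7.93e-06) and was below 0 in 6 of 6 lines. TIMP3 and TIMP2 rose in SQ20B, by 1.36 (adjusted p = 2.05e-13) and 1.16 (adjusted p = 2.12e-08), while TIMP1 (-0.54) and TIMP4 (-0.39) fell there, so that 2 inhibitors were higher and 2 lower in the line in which 6 MMPs rose. Of all genes 18.4% were higher and 14.9% lower in SQ20B.

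Of 9 activators and docking proteins, 3 were higher and 3 lower, with a median of -0.02. PLAU, the urokinase that makes plasmin, fell by 0.76 in the mean (adjusted p = 6.55e-17) with -2.15 in SCC61 (adjusted p = 5.64e-19), the line of the MMP1 fall. PLAU was also lower in SCC047 (-1.35, adjusted p = 2.39e-13), 93VU147T (-1.21, adjusted p = 2.57e-12) and SQ20B (-0.23, adjusted p = 0.0312). It was above 0 in 2 of 6 lines and rose by 0.36 in SCC25 (adjusted p = 0.00292). Its receptor PLAUR was lower in the mean (-0.45, adjusted p = 8.83e-11) and below 0 in 6 of 6 lines, passing in SQ20B and SCC61. PCSK5, a proprotein convertase, rose by 0.37 (adjusted p = 4.09e-07). Of 8 ADAM proteases, relatives of the MMPs, 2 were higher and 4 lower (median -0.08), with ADAMTS1 at -0.66 and ADAM19 at -0.63 and both below 0 in 6 of 6 lines. Of 12 substrates, mostly matrix genes, 5 were higher and 4 lower (median 0.07), among them TNC (0.49), CDH1 (0.39) and COL1A1 (0.38) higher. CDH1 is a cell adhesion gene rather than a matrix gene and is also on the list of epithelial markers, as COL1A1 is on that of fibroblast markers. COL1A1 and COL7A1 rose in SQ20B, by 1.83 and 1.42.

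A list of 13 transcription factors holds AP-1 and ETS genes, whose proteins bind motifs of the kinds searched in the promoters, and RUNX2, a Runt factor that binds neither. In the mean 2 of the 13 were higher and 9 lower, RUNX2 among the lower (-0.33), with a median change of -0.43. ETV5 was at -1.04 (adjusted p = 9.4e-10), FOSL1 at -1.02 (adjusted p = 4.18e-14) and FOS at -0.80 (adjusted p = 2.16e-12), each below 0 in 5 of 6 lines. In SQ20B, where MMP12, MMP7, MMP28, MMP3, MMP13 and MMP14 rose, 4 of the 13 were higher and 7 lower (18.4% and 14.9% of all genes). The 4 higher were ETS2 (1.11), JUND (1.01), FOSL2 (0.60) and RUNX2 (0.60). There FOSL1 fell by 3.25 (adjusted p = 1.39e-16) and ETV5 by 2.10 (log2 change -2.10, adjusted p = 5.64e-08). In SCC047, where 5 MMPs fell, 0 were higher and 8 lower (17.3% and 19.0% of all genes), RUNX2 among the lower (-0.75). Genes of this list thus moved in both directions beside higher MMPs in SQ20B, while in SCC047 those that passed were lower beside lower MMPs. No relation between them was tested.

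**Figure D4:**
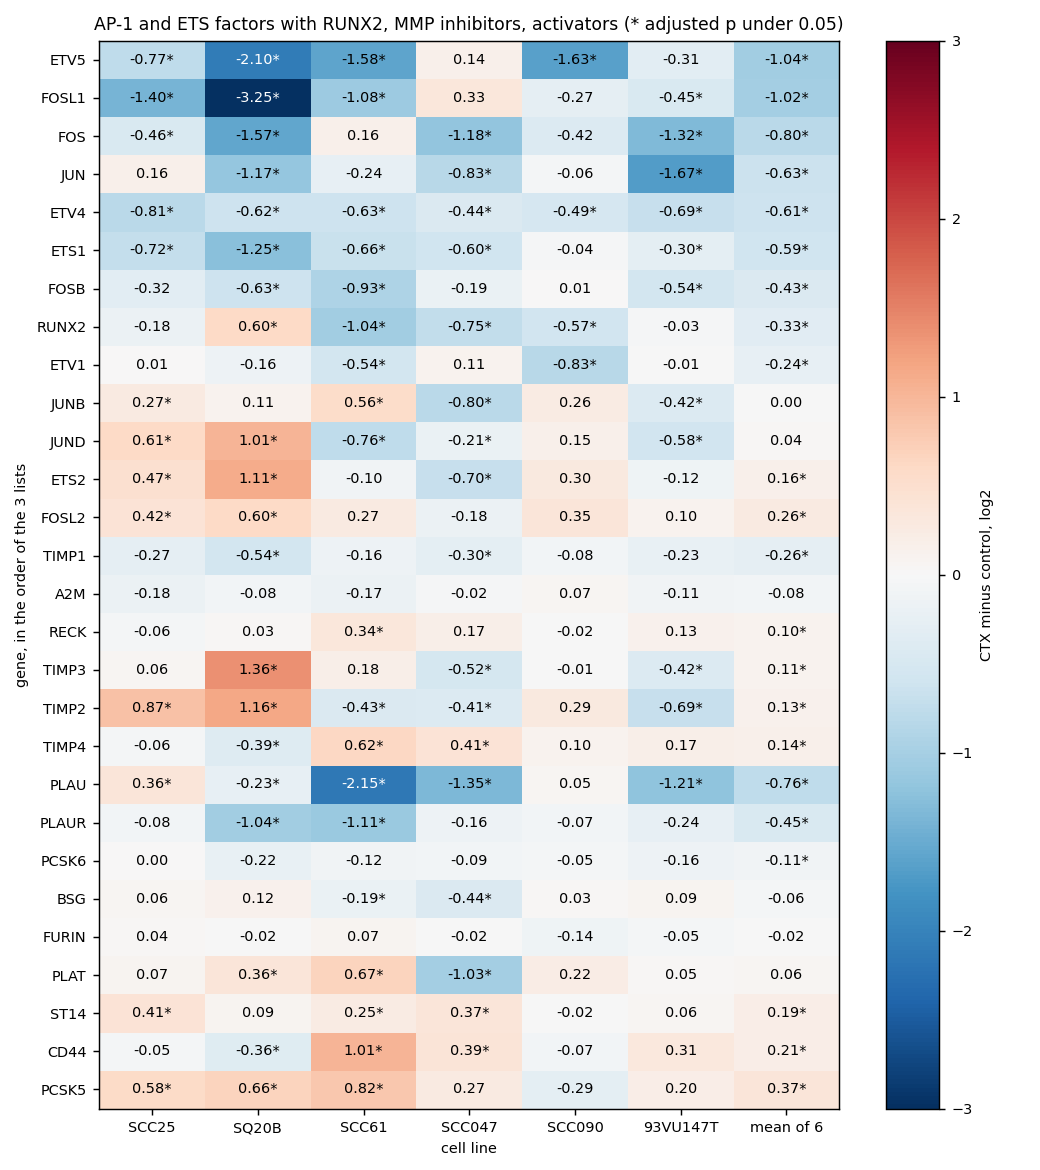
CTX minus control on the log2 scale for 13 transcription factors (AP-1, ETS and RUNX2), 6 inhibitors and 9 activators or docking proteins (rows, in that order and sorted by the mean within a list) in each line and the mean (columns), with an asterisk for adjusted p under 0.05. FOSL1 is lowest in SQ20B at -3.25, and TIMP3 and TIMP2 are red there at 1.36 and 1.16.

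KRT5 had a mean of at least 10.6 and CDH1 of at least 9.72 in every group, while KRT14 ran from 4.85 to 14.2. Of the endothelial markers CDH5 and KDR had means of at most 4.07 and 4.01, TEK of 5.91, VWF of 6.38 and PECAM1 of 6.45. Epithelial markers had 4 of 6 genes higher and 0 lower in the mean, leukocyte markers 0 and 4 of 7, fibroblast markers 2 and 1 of 8 and endothelial markers 0 and 1 of 5, against 22.8% higher and 23.1% lower of all genes. LUM reached 9.34 and COL1A1 9.92 in CTX-treated SCC25. There 4 of 8 fibroblast markers were higher, against 8.66% of all genes, and their summed level went from 10.3 in controls to 10.9 to 11.1. Their part in the SCC25 changes of MMP3 and MMP13 was not tested.

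For each member the genes with the most similar pattern over the 12 group means of the 6 lines were found by Pearson r, as a description, since the groups of a line share their background. MMP13 was most like KLK11, a kallikrein protease (r = 0.98, rho = 0.96, and r = 0.96 without the 2 SCC047 groups), and then SFTPB (r = 0.96). MMP28 was most like ALDH7A1 (r = 0.98) and PDLIM1 (r = 0.98), MMP1 like LINC02381 (r = 0.97) and STAC (r = 0.95), and MMP12 like LOXL4, a lysyl oxidase (r = 0.95), and FNDC3A (r = 0.94). MMP7 was most like the mucin gene MUC1 (r = 0.92) and CAMK2G (r = 0.92), and MMP14 like ALDH2 (r = 0.94) and APP (r = 0.92). The nearest genes to MMP2 were SRRM3 (r = 0.95) and GAST (r = 0.95), and to MMP3 ZNF433-AS1 (r = 0.95) and CCNA1 (r = 0.94). For these 2 genes rho with MMP3 was 0.70 and 0.67. Outside SCC25 and SQ20B, MMP3 lay at the low end of the scale, so its pattern rests on those lines. For MMP10, with TSPAN8 and CCK (r = 0.96 for each), r was 0.61 and 0.45 without the 2 SCC047 groups, and for MMP9, with ICAM2 (r = 0.95) and LINC00839 (r = 0.94), it was 0.46 and 0.48 without the SCC25 groups, so those patterns rest on 1 line.

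HaCaT, a keratinocyte line that is immortal but not transformed, read 11.73, 11.70 and 12.07 for MMP1, 9.60, 9.65 and 9.98 for MMP10 and 9.81, 9.72 and 10.04 for MMP13. It also read 10.21, 10.25 and 10.19 for MMP2, while MMP3 was at 3.71 to 4.01. SCC1 after CTX had MMP12 at 6.53, 6.83 and 7.15 and MMP2 at 5.07 to 5.16. These arrays lie outside the largest batch, and batch and line cannot be told apart for them.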

How the data were processed

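Values for 42 Affymetrix arrays were deposited on a log2 scale, 1 per probe set, after the authors ran fRMA, which corrects background, normalizes against a frozen reference and summarizes probes. A batch correction, pSVA, appears in their methods, and whether it went into these values is not given in the sources used here. Of 54675 probe sets, 41091 carry 1 gene symbol, and the brightest on average was kept for each of 19775 genes. A limma model (limma 3.58.1, R 4.3.3) gave each of 12 groups a mean over the 36 arrays of 6 lines (24 residual degrees of freedom, prior 6.86). Contrasts were CTX minus control per line and in the mean, untreated lines against each other and against the other 5, and differences of change between lines. P-values were adjusted by Benjamini-Hochberg over all genes, with a threshold of 0.05. SEs come from this fit. The pipeline was tested on simulated data. Precision is limited by 3 arrays per group.

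The members and gene lists were chosen with earlier results of these data known. The text names all members, the 2 genes most like each over 12 group means among genes above the median level, and, per list, up to 3 genes with the largest mean change that passed, up to 2 each in SQ20B and SCC61. Other genes of the lists (MMP26, RUNX2, ETS2, JUND, FOSL2 and the markers with values) were chosen after their values were seen. Alternatives were other probe set choices, a filter on dim genes, centring, quantile normalization, all 42 arrays, batch as a covariate, a replicate block, trended robust moderation, a minimum change of 0.5, each array or line left out and, chosen after seeing the data, both control arrays that stand apart left out. Promoter windows came from RefSeq (GRCh38.p14).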

Additional observations from a re-analysis of the deposited data

Results flagged for a closer look

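The change after CTX differed between the 6 lines for 9 of the 10 members by limma's moderated F test, with values adjusted over all genes, against 59.0% of all genes. The adjusted p was 9.06e-14 for MMP7, 3.46e-13 for MMP28, 5.13e-12 for MMP12, 5e-11 for MMP3, 3.07e-10 for MMP13, 6.37e-09 for MMP14, 4.41e-05 for MMP2, 0.0002 for MMP1 and 0.0194 for MMP10. The changes ran from -1.16 in SCC047 to 2.92 in SQ20B for MMP7 and from -1.70 in SCC25 to 0.97 in SQ20B for MMP3. For MMP10 they ran from -2.18 in SCC090, which rests on 1 control array, to 1.34 in 93VU147T.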

How the results depend on the processing

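Counts of members that passed changed as follows. Lower members in SCC25 were 2 in place of 1 under quantile normalization and without both control arrays that stand apart. Lower members in SQ20B were 0 in place of 1 with batch as a covariate, with the replicate block and with a minimum change of 0.5. Lower members in SCC090 were 2 in place of 1 with all 42 arrays in the fit and with the replicate block, which adds MMP10 (adjusted p = 0.0354 and 0.0298). In 93VU147T 1 was higher in place of 0 with the replicate block and without both arrays that stand apart (MMP10, adjusted p = 0.0466 and 4.15e-06), and 1 was lower in place of 2 with the other choice of probe set and with the minimum change. In the mean without SQ20B, 1 was higher in place of 4 and 6 lower in place of 3. Untreated SQ20B had 2 higher in place of 1 with batch as a covariate and without both arrays that stand apart (MMP12, 0.60 and 0.43). Same-numbered control and CTX arrays had a correlation over 0.1 in 7 of 18 pairs, from -0.15 to 0.32, and 10 of 18 arrays correlated best with their own number, so not every pair deviated together and the numbers were not taken to pair samples.

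Leaving out 1 array gave 2 to 4 higher and 1 to 2 lower members in SCC25, 6 higher and 0 to 1 lower in SQ20B, 2 higher and 3 to 5 lower in SCC61, 0 higher and 5 to 6 lower in SCC047, 0 higher and 0 to 2 lower in SCC090, and 0 to 1 higher and 2 to 3 lower in 93VU147T. In untreated cells it gave 1 to 2 higher in SQ20B, 0 to 2 higher and 7 to 9 lower in SCC090, and 4 to 5 lower in SCC61. MMP9 in SQ20B was lost without any 1 of its 6 arrays. In SCC090 MMP2 was lost without any treated array or without control replicate 1.

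Directions turned for MMP3 (0.28 in the mean without SCC25), MMP12 (-0.019) and MMP28 (-0.16) in the mean without SQ20B, and for untreated MMP28 in SQ20B (-0.67 in the mean of probe sets, -0.36 with the other probe set). In untreated SCC090 MMP2 ran from -0.30 (without control replicate 1) to 0.44 (without control replicate 2) and was -0.27 without both arrays that stand apart, and MMP10 ran from -0.89 to 1.55 and was -0.79. Among single members, MMP14 in SCC047 was lost with centred arrays (-0.20, adjusted p = 0.0504), and the F test of MMP10 with trended moderation (adjusted p = 0.0589), while that of MMP9 passed with centred arrays (adjusted p = 0.00857) and quantile normalization (adjusted p = 0.00984). MMP28 in 93VU147T was lost with the other probe set (-0.21, adjusted p = 0.15). The cause was not tested.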
